A study of Drosophila melanogaster with 8 samples.

Results

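The genes described here are the subunit genes of oxidative phosphorylation, chosen by name: every gene whose symbol in the platform annotation starts with ND-, Sdh, UQCR-, COX or ATPsyn. They number 74 of the 12070 genes that had a probe set with 1 symbol on at least 1 of the 2 array types, and the rule uses symbols and no measured difference. Where several probe sets read a gene on an array type, the one with the highest mean stood for it. By complex of the respiratory chain there were 33 members for complex I, 7 for complex II, 6 for complex III, 14 for complex IV and 14 for complex V. Of the 74, 21 carry the symbol of a subunit followed by L, L1 or L2 and are called like-copies below. One member of the complex II group, Sdhaf3, is an assembly factor and not a subunit.

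Oxidative phosphorylation takes electrons from NADH at complex I and from succinate at complex II, passes them through complex III and complex IV to oxygen, and uses the proton gradient built on the way to make ATP at complex V, the ATP synthase. Most subunits are encoded in the nucleus and have to be made in proportion with those encoded in the mitochondrial genome, and transcripts of the complexes are abundant in most animal cells. Many Drosophila subunit genes have a duplicated copy that is expressed for the most part in testis, which is why the like-copies are counted apart. CLK, the protein manipulated in the study, is a transcription factor of the circadian clock that activates its target genes together with CYC.

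The study used Drosophila S2 cells, a cultured line derived from embryonic haemocyte-like cells, with CLKGR, by its name a fusion of CLK with the glucocorticoid receptor (GR), whose ligand it should answer to. On the older Affymetrix array type, 2 arrays of cells given DEX were set against 2 arrays of cells given EtOH, and on the newer arrays, Drosophila 2.0, 2 DEX arrays were set against 2 arrays of a group labelled V. DEX is the usual short form of dexamethasone, a ligand of GR, and EtOH that of ethanol, while the meaning of V is not stated. All 8 arrays, controls included, carry the label CHX, the usual short form of cycloheximide, a blocker of protein synthesis. All 4 sets of arrays are therefore from CLKGR cells under CHX, with no dose or time in the labels. The source label of 1 EtOH array names a stable CLKGR transfection and those of the other arrays name S2 cells alone. Whether replicate arrays stem from different cultures is not stated, so the p-values rest on an array-to-array spread that may be technical.

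Values are log2 of the deposited intensity, and a difference is DEX minus control on that scale. If the deposited values had left their log scale with base e in place of base 2, each difference here would have to be multiplied by 0.693. Levels are not compared between genes or between array types, because probe sets differ in brightness and the 2 tables were normalised separately. Array medians ran from 27.0 to 28.8 in the older table and from 21.5 to 22.4 in the newer one. Of the haemocyte markers, Hml, Pxn, srp and Col4a1 had means of 8.70 to 13.85 on the older arrays and 9.68 to 15.74 on the newer arrays, NimC1 stood at 4.52 and 8.81, and He, read on the newer arrays, at 10.98. Of the markers of neurons, muscle, germline and testis that were read, elav and bam had the highest means, 5.80 and 5.93 on the older arrays and 5.73 and 6.21 on the newer arrays. The others, nSyb, Act88F, vas, can, aly and Mst87F, lay between 3.75 and 5.09.

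No member changed past the threshold with DEX. A gene was tested where its mean log2 value was at least 4, which kept 60 of the 67 members read on the older arrays and 61 of the 73 read on the newer arrays. At an adjusted p of 0.05 in limma, 0 of 60 members passed on the older arrays, where 0.263% of all probe sets tested did. On the newer arrays 0 of 61 passed, where 0% of all probe sets did. With both array types in 1 fit, 0 of 59 members passed, against 0% of all genes tested. At an unadjusted p under 0.05 the members numbered 1, 2 and 3 in these 3 fits, where 600 of 10250, 439 of 12436 and 308 of 8404 of all features did. The smallest adjusted p of a member was 0.846, 0.865 and 0.901. The fit of both types averages the 2 effects, so changes of opposite direction cancel in it. On the older arrays 22 of the 27 probe sets called were higher with DEX, with a median of 2.24. The test of the newer minus older difference called 25 genes, 22 of them below 0, with a median of -3.36. The lowest of these differences, -6.85, was larger in size than the highest older difference, 4.04, and the lowest newer difference was -3.49. The largest of them thus joined a gene higher with DEX on the older arrays and lower on the newer. Why the types differed was not tested. A change on 1 type alone, or of opposite direction on the 2, can therefore be missed in the joint fit.

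The 95% intervals bound what these arrays could have missed, for members bright enough to be read. In the fit of both types, with 4 DEX arrays against 4 controls, the differences of the 59 members lay between -0.24 and 0.31, and their 95% intervals between -0.62 and 0.77. All 59 intervals therefore stayed inside a difference of 1 on the log2 scale in either direction. Of these members, 8 were under the minimum on 1 type, where a value cannot tell a transcript from background. Their intervals set no bound on a change. For the 51 members at the minimum on each type, a choice made after seeing the data, all 51 intervals stayed inside 1. Some of them lay close to the minimum, such as COX7C at 4.69 and SdhC at 4.95 on the older arrays. For these the interval bounds little. All these intervals are for the average of the 2 effects and do not bound a change on 1 type. Within a type, with 2 arrays against 2, 59 of 60 intervals stayed inside 1 on the older arrays and 55 of 61 on the newer arrays. The smallest difference called on the older arrays, over all probe sets, was 0.765 in size, and every member's difference there was smaller. That size is no limit of detection, because a call also depends on the standard error. It was 0.072 to 0.286 for the probe sets called and reached 0.333 among the members. The plot of the members by complex shows how little of the range lies below 0 in complexes III and IV and how wide the intervals are.

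**Figure D1:**
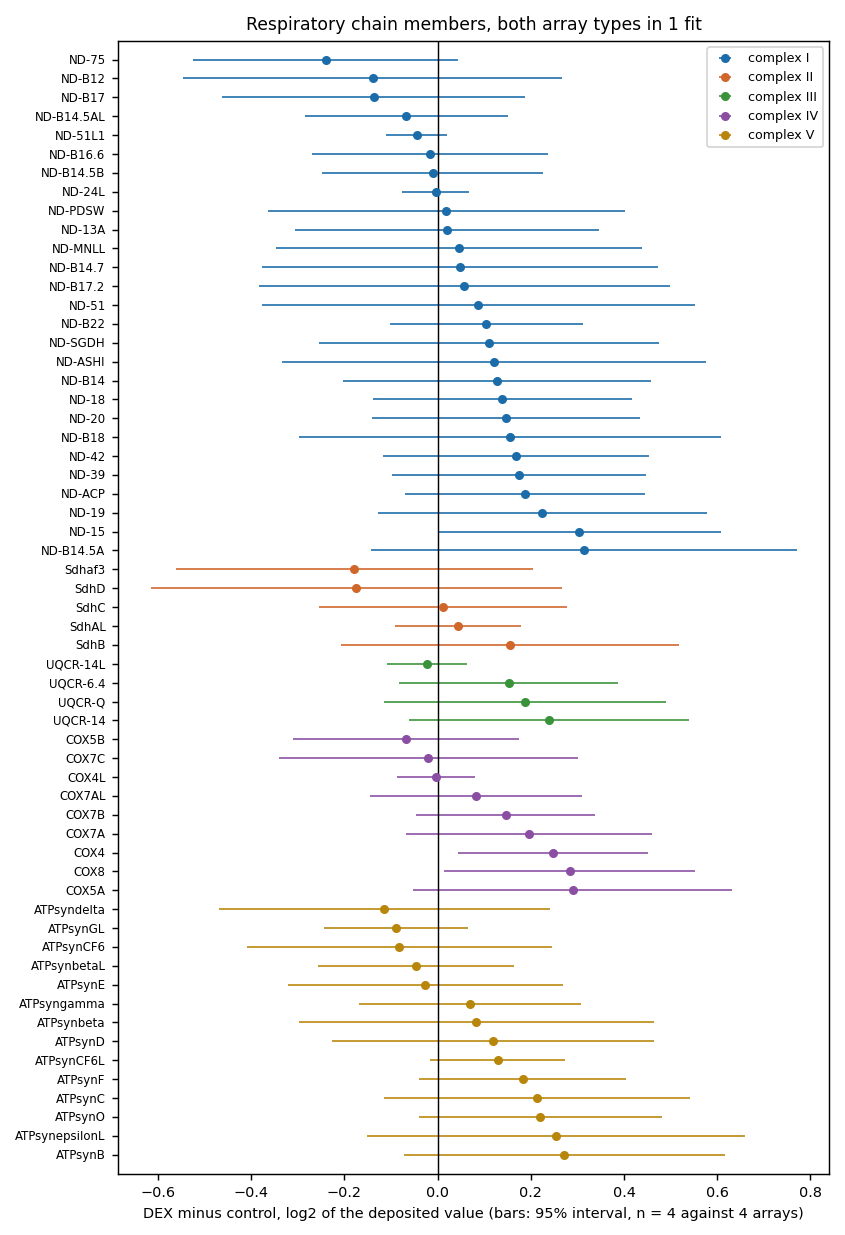
Difference between DEX and control (horizontal axis, log2) for the 59 members tested in the fit of both array types, ordered by complex (colour) and by size; bars are 95% intervals from limma, n = 4 DEX and 4 control arrays. The points lie between -0.24 and 0.31, and every interval stays between -0.62 and 0.77.

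More members stood above 0 than below it. With the older arrays 40 of 60 had a higher mean with DEX, with a median difference of 0.067, where 41.1% of all probe sets tested were higher and their median was -0.014. Among the newer arrays 39 of 61 were higher, with a median of 0.085, beside 47.6% and a median of -0.0045 over all probe sets. In the fit of both types the count was 40 of 59 and the median 0.087, beside 51.3% and 0.003 over all genes tested. By kind, 36 of the 48 members that are not like-copies were higher in that fit, with a median of 0.119, and 4 of the 11 like-copies, with a median of -0.0043. Between replicate arrays the members' median had a standard deviation of 0.049 on the older arrays and 0.119 on the newer ones, so that the newer median was within that spread. The older median was 0.015 after quantile normalisation was repeated, and ran from 0.024 without DEX replicate 1 to 0.116 without EtOH replicate 1.

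The lean was shared by bright probe sets in general. Among genes with a mean log2 of 10 or more in the fit of both types, 73.8% of 940 genes were higher with DEX, with a median of 0.096, and so were 24 of 30 members, with a median of 0.162. Between a mean of 4 and 6, by contrast, 36.2% of 4000 genes were higher, and 4 of 10 members. The members are bright, 42 of the 61 tested on the newer arrays having a mean of 10 or more. Measured against all probe sets of the same range of brightness, a comparison chosen after seeing the data, the members' median came to 0.018 on the older arrays, with 35 of 60 above 0, and to 0.0098 on the newer arrays, with 33 of 61 above 0. The part of brightness in the difference of any 1 member was not tested.

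**Figure D2:**
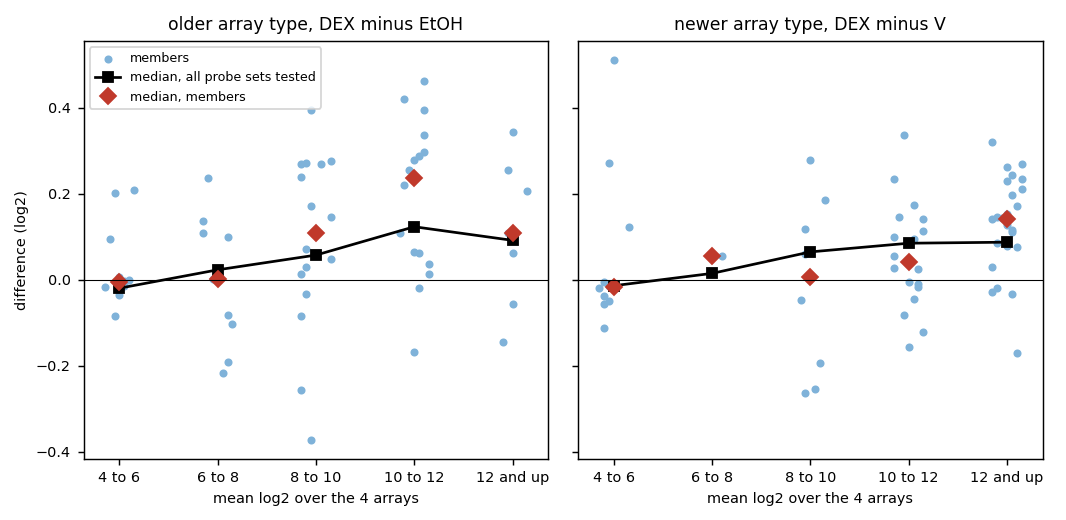
Difference between DEX and control (vertical axis, log2) by range of mean log2 value (horizontal axis) on each array type, n = 2 arrays a group. Small points are members, diamonds their medians and squares the medians of all probe sets tested, which are lowest in the dimmest range, at -0.020 on the older arrays and -0.014 on the newer arrays, and reach 0.123 and 0.087 among the brighter ranges.

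The 8 arrays did not contribute evenly. Each array's shift is given as the median, over the members tested, of the array's value minus the gene's mean on that type. On the older arrays the 2 EtOH arrays stood at -0.0044 and -0.078 and the 2 DEX arrays at 0.079 and 0.015. With the newer arrays V replicate 1 stood at 0.070 and V replicate 2 at -0.157, while the DEX arrays stood at 0.0062 and 0.073. V replicate 2 was thus the low array, with 11 of 61 members above their own mean, and V replicate 1 was nearly as high as the higher DEX array. All probe sets with a mean of 8 or more had a shift of -0.123 on V replicate 2 and of 0.024 to 0.049 on the other 3 arrays of the newer type. Without V replicate 2 the newer type's median over the members was -0.023, with 26 of 61 above 0, and without V replicate 1 it was 0.205, with 48 above 0. The direction of the lean on the newer arrays therefore rested on V replicate 2.

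**Figure D3:**
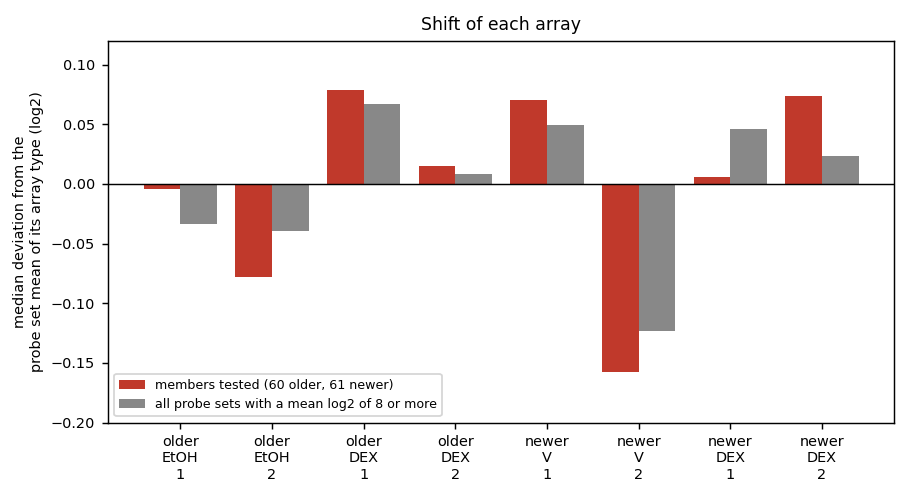
Median deviation of each array (vertical axis, log2) from the mean of the 4 arrays of its type, for the members tested and for all probe sets with a mean log2 of 8 or more. The newer type's V replicate 2 is lowest for both, at -0.157 and -0.123.

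By arrays that do not overlap, 13 of 60 members on the older arrays (21.7%) had both DEX arrays above both EtOH arrays, where 13% of all probe sets did, and 2 members (3.33%) had both below, where 13.6% did. Among the newer arrays 12 of 61 (19.7%) had both DEX arrays above both V arrays, beside 13% of all probe sets, and 6 (9.84%) had both below, beside 23.9%. Among probe sets with a mean of 8 or more the shares of members and of all were close for the higher direction: 30.8% of 39 members and 28.4% of all on the older arrays, 22% of 50 members and 22.4% of all on the newer arrays. In the lower direction they were 2.56% and 13.4% on the older arrays and 6% and 9.56% on the newer arrays. On both types at once, 2 of 59 members, COX4 and COX8, were above their controls without overlap (3.39%, beside 2.52% of all genes tested), and 0 were below them (beside 2.64%). With a mean of 8 or more the share above was 4.26% of 47 members and 5.71% of 2347 genes, so the members' share was near that of all genes.

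Complex I, the NADH dehydrogenase, had the most members, and 19 of the 27 tested in the fit of both types were higher with DEX, with a median of 0.087. The older type gave 22 of 29 and the newer 17 of 28. ND-MWFE, a small accessory subunit in the membrane arm, was read on the older arrays and had the largest difference there. Its EtOH arrays stood at 10.20 and 10.07 and its DEX arrays at 10.68 and 10.51. Both DEX arrays lay above both EtOH arrays. The difference was 0.46 ± 0.19 (SE, n = 2 against 2), 1.38-fold on the deposited scale, with an adjusted p of 0.846 in limma. It was the only member of the older fit with an unadjusted p under 0.05.

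ND-15, an accessory subunit, had the smallest unadjusted p of complex I in the fit of both types. On the older arrays its EtOH arrays stood at 9.77 and 9.89 and its DEX arrays at 10.21 and 9.996, so that the groups did not overlap. With the newer arrays its V arrays stood at 11.66 and 11.21 and its DEX arrays at 11.65 and 11.89. There V replicate 1 was level with the lower DEX array, and only V replicate 2 stood apart. The difference over both types was 0.30 ± 0.13, with an adjusted p of 0.901, and on the newer arrays it was 0.34, or 0.11 without V replicate 2.

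ND-B14.5A, another accessory subunit, had the highest difference of all members over both types, 0.31 ± 0.20, with an adjusted p of 0.901. Its older EtOH arrays were 9.94 and 9.18 and its DEX arrays 10.24 and 9.66. The 2 EtOH arrays were further apart than the group means, which differed by 0.39. Among the newer arrays its V arrays were 11.11 and 11.12 and its DEX arrays 11.46 and 11.24, both DEX arrays above both V arrays. ND-18, an accessory subunit of the matrix arm, stood at 8.92 and 8.83 in V and at 9.04 and 9.27 in DEX on the newer arrays, a difference of 0.28, while on the older arrays its difference was 0.00044.

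ND-MLRQ, read on the newer arrays alone, was 15.77 and 15.75 in V and 16.06 and 15.98 in DEX. Its replicates lay close together and its groups apart. The difference was 0.26 ± 0.068, with an unadjusted p of 0.027 and an adjusted p of 0.865 in limma. In mammals its counterpart, first placed in complex I, is now counted with complex IV.

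The lowest member over both types was ND-75, the large iron-sulfur subunit of the electron input arm. On the newer arrays both V arrays stood at 9.88 and the DEX arrays at 9.74 and 9.49. Both DEX arrays lay below. With the older arrays its EtOH arrays were 7.89 and 7.85 and its DEX arrays 7.86 and 7.44, so that DEX replicate 2 alone stood apart, and without it the older difference of -0.22 was -0.0079. Over both types the difference was -0.24 ± 0.12, with an adjusted p of 0.901.

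ND-B17 and ND-B12, accessory subunits of the membrane arm, were the other low members of complex I. Among the older arrays ND-B17 was 8.77 and 8.21 in EtOH and 8.27 and 8.2 in DEX, a difference of -0.26 that was 0.02 without EtOH replicate 1. ND-B12 on the newer arrays was 9.06 and 8.36 in V and 8.43 and 8.60 in DEX, a difference of -0.20 that was 0.16 without V replicate 1. For both genes 1 control array was high and the other lay close to the DEX arrays. The other probe sets of ND-ACP, the acyl carrier protein of the complex, gave differences of 0.33 and -0.07 on the newer arrays beside the 0.077 of the brightest. For ND-B17 the other newer probe set gave 0.15 beside the -0.018 of the brightest.

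Complex II, succinate dehydrogenase, which also serves the tricarboxylic acid cycle, had 3 of 5 members higher over both types, with a median of 0.012. SdhD, a membrane anchor subunit, was 8.08 and 7.73 in EtOH and 8.13 and 7.30 in DEX on the older arrays. Its DEX arrays differed by more than the group means, and the difference of -0.19 was 0.22 without DEX replicate 2. On the newer arrays it was 10.90 and 10.996 in V and 10.91 and 10.66 in DEX. Over both types it stood at -0.17 ± 0.19, with an adjusted p of 0.906.

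Sdhaf3, the assembly factor, helps to build the iron-sulfur subunit and had the smallest unadjusted p of the group. With the newer arrays it was 10.15 and 9.80 in V and 9.57 and 9.87 in DEX, and on the older arrays 7.68 and 7.15 in EtOH and 7.46 and 7.16 in DEX. The groups overlapped on both types. The difference over both was -0.18 ± 0.16, with an adjusted p of 0.901. SdhB, the iron-sulfur subunit itself, stood at 0.15 ± 0.16 and SdhC, the second membrane anchor, at 0.01 ± 0.11. On the older arrays SdhC lay close to the minimum, at a mean of 4.95, so its difference there says little about the gene.

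Complex III, the cytochrome bc1 complex, had 4 members in the fit of both types, and the 3 that are not like-copies were all higher with DEX on both. UQCR-14, a small subunit on the matrix side, was 7.88 and 7.89 in EtOH and 8.01 and 8.29 in DEX on the older arrays. Among the newer arrays it was 12.63 and 12.17 in V and 12.56 and 12.66 in DEX, where V replicate 1 lay among the DEX arrays. The difference over both types was 0.24 ± 0.13, with an adjusted p of 0.901. UQCR-Q stood at 0.19 ± 0.13 and UQCR-6.4 at 0.15 ± 0.10, and the like-copy UQCR-14L at -0.02 ± 0.04. On the newer arrays the groups of UQCR-14, UQCR-Q and UQCR-6.4 all overlapped. V replicate 1 of UQCR-6.4, at 14.68, lay above both DEX arrays, at 14.57 and 14.67.

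Complex IV, cytochrome c oxidase, had 6 of 9 members higher in the fit of both types, with a median of 0.146. COX4, one of the nuclear-encoded subunits around the catalytic core, was 12.64 and 12.79 in EtOH and 12.97 and 13.14 in DEX on the older arrays. On the newer arrays it was 13.41 and 13.38 in V and 13.55 in both DEX arrays. All 4 DEX arrays stood above the controls of their type. The difference was 0.34 on the older arrays and 0.15 on the newer arrays, and over both it was 0.25 ± 0.09, with an unadjusted p of 0.023 and an adjusted p of 0.901. Leaving out each array in turn kept it between 0.193 and 0.273.

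COX8, a small membrane subunit, was 10.61 and 10.27 in EtOH and 10.92 and 10.75 in DEX on the older arrays, and 12.65 and 12.46 in V and 12.69 and 12.76 in DEX on the newer arrays. Again all 4 DEX arrays were above the controls of their type. The difference over both types was 0.28 ± 0.12, with an adjusted p of 0.901. COX5A, another nuclear-encoded subunit, had a difference of 0.29 ± 0.15, with EtOH at 11.27 and 10.81 and DEX at 11.50 and 11.25 on the older arrays. With the newer arrays its V arrays were 13.85 and 13.40 and its DEX arrays 13.81 and 13.92, and the groups overlapped on both.

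COX7A, a small subunit of the same complex, had the lowest newer minus older difference. Among the older arrays its EtOH arrays were 11.76 and 11.60 and its DEX arrays 12.15 and 12.05, a difference of 0.42 ± 0.17. On the newer arrays its V arrays were 13.17 and 13.19 and its DEX arrays 13.16 and 13.14, a difference of -0.03 ± 0.07. The groups were well apart on the older arrays, and on the newer the DEX arrays lay just below the V arrays. The newer minus the older difference was -0.45 ± 0.17, with an unadjusted p of 0.033 and an adjusted p of 0.977 in limma.

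COX5B was the lowest of complex IV on the newer arrays, at 14.07 and 13.85 in V and 13.64 and 13.93 in DEX, a difference of -0.17. COX7C lay close to the minimum on the older arrays, at a mean of 4.69, and its difference of -0.0073 there says little about the gene.

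**Figure D4:**
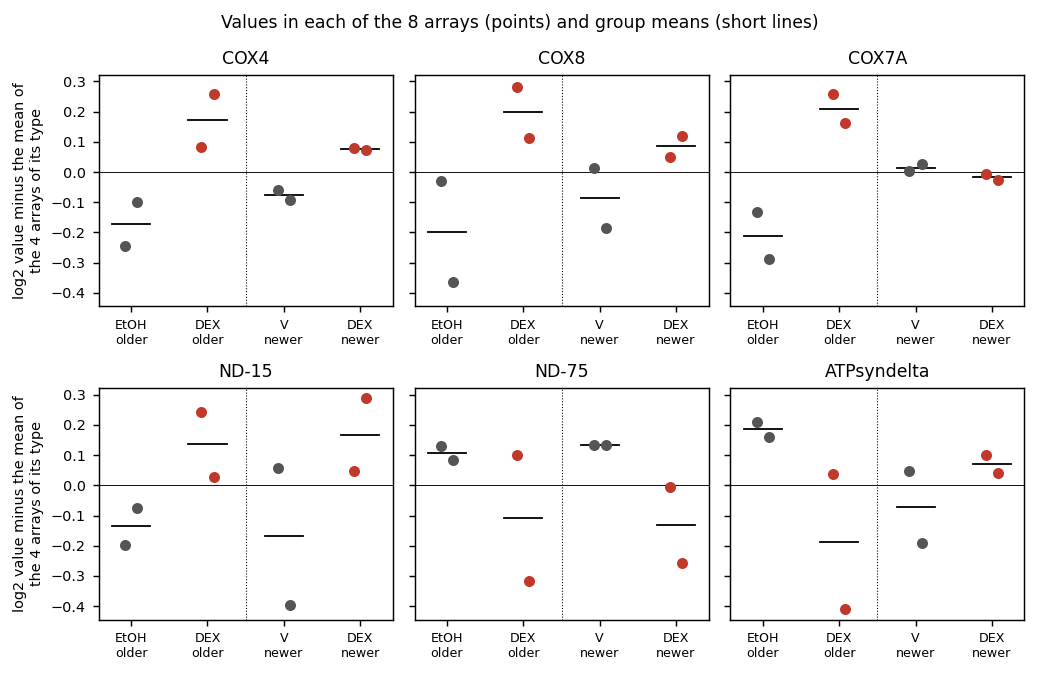
Values of 6 members in each of the 8 arrays as log2 minus the mean of the 4 arrays of the same type (vertical axis), grey for EtOH or V and red for DEX, with a short line at each group mean (n = 2). All 4 DEX arrays of COX4 and COX8 lie above the controls of their type, while the groups of COX7A and ATPsyndelta are apart on the older arrays and close together on the newer.

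Complex V, the ATP synthase, had 9 of 14 members higher in the fit of both types, with a median of 0.101. Of those tested within a type, 6 of 12 were higher on the older arrays and 11 of 13 on the newer arrays. In the rotor, ATPsynC, the subunit of the membrane ring, was 13.29 and 12.83 in V and 13.28 and 13.48 in DEX on the newer arrays. Its difference there was 0.32, and 0.09 without V replicate 2, the array that stood apart. Over both types it was 0.21 ± 0.14. A dimmer probe set of ATPsynC on the older arrays gave -0.042 beside the 0.108 of the brightest.

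ATPsyndelta, of the central stalk, was the lowest member on the older arrays. Its EtOH arrays were 9.23 and 9.18 and its DEX arrays 9.06 and 8.61, both DEX arrays below. The difference was -0.37 ± 0.22, with an adjusted p of 1.00 in limma. With the newer arrays the V arrays were 13.27 and 13.03 and the DEX arrays 13.32 and 13.26, a difference of 0.14. The newer minus the older difference was 0.51 ± 0.26, with an adjusted p of 1.00. ATPsyngamma, the shaft of that stalk, stood at 0.07 ± 0.10 over both types, and the catalytic ATPsynbeta at 0.08 ± 0.16.

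In the peripheral stalk, which holds the catalytic head still, ATPsynB stood at 0.27 ± 0.15, ATPsynO at 0.22 ± 0.11, ATPsynD at 0.12 ± 0.15 and ATPsynCF6 at -0.08 ± 0.14 over both types. The first 3 were higher on both array types and ATPsynCF6 was lower on both. On the newer arrays the difference of ATPsynCF6 was only -0.019 ± 0.22, with V at 15.91 and 15.46 and DEX at 15.51 and 15.82. The newer groups of ATPsynD overlapped too, with V at 13.94 and 13.63 and DEX at 13.80 and 14.03. In the membrane part, ATPsynF stood at 0.18 ± 0.10 and ATPsynE at -0.03 ± 0.13. ATPsynE had a newer minus older difference of 0.28, with EtOH at 10.98 and 11.32 and DEX at 10.86 and 11.11 on the older arrays and V at 12.04 and 12.09 and DEX at 12.30 and 12.06 on the newer. Its groups overlapped on both types.

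The like-copies stood mostly at the bottom of the scale. Those with a mean of 6 or more were ATPsynbetaL, at 8.96, and ATPsynGL, at 6.44, both on the older arrays. On the newer arrays the means of these genes were 4.91 and 3.54. The highest like-copies there were COX7AL2 at 5.76 and ATPsynepsilonL at 5.72. The minimum kept 11 of the 17 read on the older arrays and 9 of the 21 read on the newer arrays, against 49 of 50 and 52 of 52 of the other members. Those under it on the older arrays were ATPsynCF6L, ATPsynepsilonL, COX5BL, ND-20L, SdhBL and UQCR-14L. Among the newer arrays they were ATPsynGL, COX4L, COX5BL, COX6AL2, COX6CL, ND-20L, ND-24L, ND-51L1, ND-51L2, SdhAL, SdhCL and UQCR-11L. ND-B8 was the only other member under it, on the older arrays. Of the testis markers, can, aly and Mst87F had means of 3.79 to 5.09, and bam stood higher, at 5.93 and 6.21. Values this low cannot tell a transcript at a low level from background.

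The minimum of the joint fits applies to the mean of all 8 arrays, so that 8 of their 59 members were under it on 1 of the types. Of these, the like-copies ATPsynepsilonL and ATPsynCF6L had newer minus older differences of 0.51 and 0.28, which are taken against older values under the minimum and say nothing of a difference between the types. ATPsynepsilonL was 5.82 and 5.11 in V and 6.14 and 5.81 in DEX on the newer arrays, a difference of 0.51 ± 0.32 that was 0.16 without V replicate 2. On the older arrays it lay under the minimum, between 3.82 and 3.89 on all 4 arrays. V replicate 2 was again the array that stood apart.

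ATPsynCF6L was 4.38 and 4.45 in V and 4.67 and 4.70 in DEX on the newer arrays, both DEX arrays above. The difference was 0.27 ± 0.04, with an unadjusted p of 0.0054 and an adjusted p of 0.865. With the older arrays it was under the minimum, between 3.62 and 3.75.

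The test of the difference between the types called 0 of 59 members in limma, where 0.297% of all genes tested were called, and 2 members had an unadjusted p under 0.05, COX7A and ATPsynCF6L, where 401 of 8404 genes did. The newer minus older difference was above 0 for 23 of 59 members, with a median of -0.031, beside 53.5% of all genes and a median of 0.011. For the 51 members at the minimum on each type, a choice made after seeing the data, it was above 0 for 19, with a median of -0.057, and 0 were called, with COX7A at an unadjusted p under 0.05. Over all members in the fit, not these 51 alone, the count without V replicate 1 was 36. The median over all members ran from -0.152 to 0.044 with each array left out. By complex, 1 of 9 members of complex IV and 9 of 14 of complex V were above 0, with medians of -0.189 and 0.077. Besides COX7A, the lowest were ND-B17.2 at -0.36, ND-20 at -0.25 and COX7AL at -0.24, 2 subunits of the matrix arm of complex I and a like-copy. In ND-B17.2 the replicates were wide apart, at 10.62 and 10.18 in V and 10.01 and 10.54 in DEX on the newer arrays. ND-20 was 8.33 and 8.11 in EtOH and 8.37 and 8.60 in DEX on the older arrays, and 11.06 and 10.90 in V and 10.87 and 11.13 in DEX on the newer. COX7AL stood at 4.86 and 4.96 in EtOH and at 4.91 and 5.31 in DEX on the older arrays, and between 4.62 and 4.69 on the newer.

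The 2 array types share no array, so the direction of a member on one can be set beside that on the other. Of the 59 members, 29 were higher with DEX on both types, 14 were lower on both and 16 went opposite ways. That is 49.2% higher on both, where 24.5% of all 8404 genes were, and 23.7% lower on both, where 31.7% were. With a mean of 6 or more the shares higher on both were 59.2% of 49 members and 37.3% of 4404 genes, and lower on both 16.3% and 16.8%. Across the members the 2 differences had a Pearson r of 0.366 and a Spearman rho of 0.419, and across all genes of -0.175 and 0.051. Genes are not independent replicates, and all members share the same 8 arrays and, for the most part, high brightness. At that higher mean, r was 0.431 over the members and -0.229 over all genes. The counts on both types include V replicate 2, on which the direction of the lean on the newer arrays rested. Without that array 26 of 61 members were above 0 on the newer type, with a median of -0.023.

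**Figure D5:**
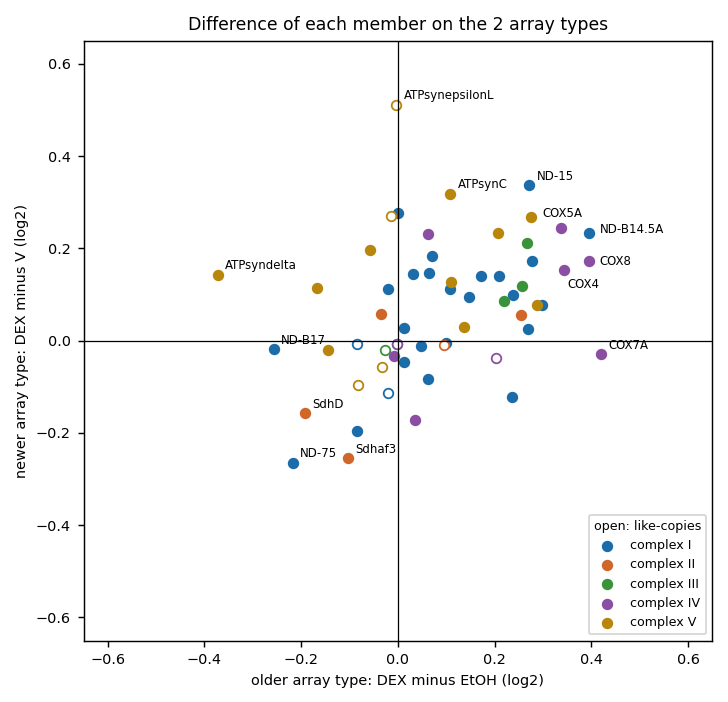
Difference between DEX and control of the 59 members on the older array type (horizontal axis, log2) and on the newer arrays (vertical axis, log2), coloured by complex, with like-copies as open circles and n = 2 arrays a group. In the upper right lie the 29 members higher on both types, among them COX4, COX8, COX5A, ND-15 and ND-B14.5A, and in the lower left the 14 lower on both, among them ND-75, SdhD and Sdhaf3.

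The neighbours of the members in the same pathways did not pass either. Of the subunits and electron carriers that go by other names, 8 of the 23 listed were tested in the fit of both types and 0 were called by limma, with 1 at an unadjusted p under 0.05. Of these 7 were higher, with a median of 0.214, the highest being levy, a subunit of complex IV, at 0.27 ± 0.09 and the lowest ox, a subunit of complex III, at -0.02 ± 0.13. The rest of the 23 had no value under these symbols, among them all listed genes of the mitochondrial genome and both cytochrome c genes. Of 8 genes of the tricarboxylic acid cycle 4 were higher, with a median of 0.042, and the range ran from Idh3b, of isocitrate dehydrogenase, at -0.35 ± 0.23 to Scsalpha1, of succinyl-CoA synthetase, at 0.19 ± 0.11.

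Of 7 assembly factors, which include Sdhaf3, 5 were higher, with a median of 0.102. Bcs1, which inserts the iron-sulfur protein of complex III, stood at 0.43 ± 0.27 and Surf1, a factor for complex IV, at -0.26 ± 0.18. Of 14 genes of mitochondrial genome maintenance, biogenesis and import 6 were higher, with a median of -0.025, from the import pore Tom40 at -0.37 ± 0.27 to its receptor Tom20 at 0.15 ± 0.15. In these 3 groups 0 genes were called, and 0 had an unadjusted p under 0.05 in the fit of both types. In the other fits, at an unadjusted p under 0.05, Idh3b stood at -0.59 ± 0.14 on the newer arrays, with an adjusted p of 0.865. Ttc19, an assembly factor of complex III named after its values were seen, stood at 0.84 ± 0.18 on the older arrays, with an adjusted p of 0.310 in limma, and its newer minus older difference was -0.88 ± 0.24, with an adjusted p of 0.665.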

How the data were processed

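Biotin-labelled total RNA, extracted with TRIzol, was read on 8 Affymetrix arrays, per the labels' protocols. The authors deposited 1 intensity per probe set and array, made with GCRMA (version not stated) per the submitters' processing notes. GCRMA corrects background and normalises by quantiles, which removes shifts common to all probe sets of an array. The authors' files hold linear values, and which base turned GCRMA's log values into them is not stated. The number of arrays, 2 a group and type, limits the precision.

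Values were taken to log2 without a pseudocount. Affymetrix controls (44 probe sets of the older and 183 of the newer type) were left out, and probe sets with a mean log2 of at least 4, which is 16 on the deposited scale, were tested. limma 3.58.1 in R 4.3.3 (lmFit, eBayes with an intensity trend, two-sided, Benjamini-Hochberg over all features tested) was run within each type, with 2 residual degrees of freedom, over both types with type as a block, and with an interaction. The steps were tested on simulated data with seeded changes of 2 and 4 on the log2 scale. Those are larger than the difference of any member, so that test says nothing of how well smaller changes are found. A gene was read by its brightest probe set with 1 symbol, and 21 of the members tested on the newer type and 1 on the older rest on probe sets that can read more than 1 transcript. No sequences, genome or coordinates were used here.

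The members and lists were chosen with earlier results of these data known. Named are members called in any fit, the 4 highest and 4 lowest of each fit, the smallest p of each complex, the like-copies under the minimum, and the extremes of the other lists. Other members were named after their values were seen.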

Additional observations from a re-analysis of the deposited data

How the results depend on the processing

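No member was called under any of the 64 alternative settings of the 4 fits, which changed the minimum, centring, normalisation, variance model, probe sets, members or arrays. The older type's median over the members, 0.067, was 0.0154 after quantile normalisation was repeated and 0.0179 against features of the same brightness, the latter chosen after seeing the data, and ran from 0.0245 to 0.116 with each array left out. The newer type's median, 0.085, ran from -0.0228 to 0.205 with each array left out. Those of both types and of the interaction moved by less than the spread between replicates. The members above 0 in the interaction, 23, ran from 16 to 36 with each array left out. The cause was not tested. Leaving out each array gave -0.533 to 0.0209 for ND-B17 and -0.607 to 0.223 for SdhD on the older type. It gave -0.548 to 0.158 for ND-B12 on the newer type and -0.269 to 0.0128 over both. The other 494 values of named members under these settings kept their sign. With 1 array left in a group, that array is assumed to vary like the others. No paired analysis was possible because of the 2 control arrays of each type only 1 carries a number in its label; the number 1 of the other only names it. Brightness limits the like-copies, most of which lie near or under the minimum.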
